A study of Mus musculus with 4 samples.

Results

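Single mouse blastomeres of the 32-cell stage were set against single cells of the early blastocyst. The members were chosen by column name, which gave 22 cells named as 32-cell and 13 cells named as blastocyst, or 35 of the 161 cells in the gene and isoform tables. All embryos came from 6-8-week-old C57BL/6J females mated with DBA/2NCrl males (strain given as DBA/2J x C57BL/6J). By the study's methods the females were injected first with pregnant mare's serum gonadotropin (PMSG) and then with hCG, the hormone given to induce ovulation. No allele or other treatment is labelled for either group. Embryos were collected 78-80 h (16- and 32-cell) and 88-90 h (early blastocyst) after hCG. Each cell was amplified with the oligos of its own 10x gel bead, and polyA RNA was read as full-length cDNA with a cell barcode and unique molecular identifiers (UMIs, tags that mark each copied RNA molecule) on a PacBio sequencer. PCR products of about 60 cells were pooled for each of 3 runs. By the study's cell lists all 13 blastocyst cells were in run 1 and all 22 32-cell blastomeres in run 2, so that stage and run cannot be told apart, and each stage counts as 1 sample. The cell names give no embryo and no position in the embryo. No test was therefore made, and the intervals given below cover counting error only.

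The level of a gene is its number of UMIs summed over the cells of a stage, in copies per 100,000 UMIs, with an exact 95% Poisson interval. Blastocyst cells held 18215-56493 UMIs (median 47437) of 4495-6896 genes, and 32-cell blastomeres 13238-60779 UMIs (median 34772.5) of 3355-6617 genes. In all, 605474 and 762806 UMIs were compared. In the median cell, 1 UMI was worth 2.11 copies in the blastocyst and 2.88 copies at the 32-cell stage. Mitochondrially encoded genes took a median of 2.61% of the UMIs of a blastocyst cell and 3.61% of those of a 32-cell blastomere. Over the 1458 genes with 10 or more copies in both stages the median ratio of blastocyst to 32-cell level was 1.02. Oocytes and zygotes sequenced in the same runs (9 in run 1, 3 in run 2) and 38 blastomeres of the 16-cell stage, from runs 1 to 3, were used as reference values.

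The blastocyst is the first stage with separate cell lineages. Its outer cells form the trophectoderm, an epithelium that pumps fluid into the cavity and later builds the placenta, and is known for the transcription factors Cdx2 and Gata3 and the keratins Krt8 and Krt18. The inner cell mass holds the epiblast, which gives the fetus and is known for Nanog and Sox2, and the primitive endoderm, which lines the yolk sac and is known for Gata6, Gata4 and Sox17. In the early inner cell mass, cells that make Nanog and Gata6 together are a known state before these lineages part.

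Promoter sequences are shown for 6 genes on which the results turn: Spp1, Upp1 and AA467197, which were gained in the blastocyst, the keratins Krt8 and Krt18, which differed most between its cells among the trophectoderm markers, and Nppb, which was lost. They are RefSeq windows of the build GRCm38.p6 from 250 bases before to 50 bases after the annotated start, read 5′ to 3′ along the gene. Capitals mark the bases from the first base of a deposited isoform onward.
Spp1, chr5:104434861-104435160, plus strand: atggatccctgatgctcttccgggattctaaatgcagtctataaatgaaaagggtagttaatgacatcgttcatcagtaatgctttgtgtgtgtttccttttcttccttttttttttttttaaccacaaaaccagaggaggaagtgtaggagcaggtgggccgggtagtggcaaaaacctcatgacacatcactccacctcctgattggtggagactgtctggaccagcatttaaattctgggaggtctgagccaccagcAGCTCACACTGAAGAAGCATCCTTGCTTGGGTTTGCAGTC
Upp1, chr11:9118257-9118556, plus strand: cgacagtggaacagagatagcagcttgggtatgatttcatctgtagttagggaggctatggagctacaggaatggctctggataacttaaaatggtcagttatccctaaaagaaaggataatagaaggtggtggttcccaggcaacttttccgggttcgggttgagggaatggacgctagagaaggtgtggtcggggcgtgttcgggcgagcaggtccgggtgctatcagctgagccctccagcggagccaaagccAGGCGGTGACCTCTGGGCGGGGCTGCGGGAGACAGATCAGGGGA
AA467197, chr2:122637637-122637936, plus strand: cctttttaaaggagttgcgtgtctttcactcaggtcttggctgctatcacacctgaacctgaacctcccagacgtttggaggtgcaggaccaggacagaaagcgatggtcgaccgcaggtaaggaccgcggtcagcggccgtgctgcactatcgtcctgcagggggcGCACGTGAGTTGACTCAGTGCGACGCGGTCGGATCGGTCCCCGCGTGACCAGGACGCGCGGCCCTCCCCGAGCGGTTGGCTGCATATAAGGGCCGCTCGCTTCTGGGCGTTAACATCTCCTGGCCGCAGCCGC
Krt8, chr15:102004293-102004592, minus strand: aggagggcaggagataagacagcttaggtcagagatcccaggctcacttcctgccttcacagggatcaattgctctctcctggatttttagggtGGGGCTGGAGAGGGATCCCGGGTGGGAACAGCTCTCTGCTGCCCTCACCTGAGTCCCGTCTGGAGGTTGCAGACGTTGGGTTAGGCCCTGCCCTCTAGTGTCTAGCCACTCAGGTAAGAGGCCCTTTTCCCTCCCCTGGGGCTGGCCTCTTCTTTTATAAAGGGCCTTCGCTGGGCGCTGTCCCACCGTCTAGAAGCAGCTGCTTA
Krt18, chr15:102027966-102028265, plus strand: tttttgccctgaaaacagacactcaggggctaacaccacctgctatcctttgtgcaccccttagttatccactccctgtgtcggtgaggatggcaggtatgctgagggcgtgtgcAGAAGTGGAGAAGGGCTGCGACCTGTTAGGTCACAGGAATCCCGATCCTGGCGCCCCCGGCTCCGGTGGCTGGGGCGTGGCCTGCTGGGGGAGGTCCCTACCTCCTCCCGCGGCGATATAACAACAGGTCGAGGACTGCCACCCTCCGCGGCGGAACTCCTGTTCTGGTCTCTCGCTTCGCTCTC
Nppb, chr4:147985650-147985949, plus strand: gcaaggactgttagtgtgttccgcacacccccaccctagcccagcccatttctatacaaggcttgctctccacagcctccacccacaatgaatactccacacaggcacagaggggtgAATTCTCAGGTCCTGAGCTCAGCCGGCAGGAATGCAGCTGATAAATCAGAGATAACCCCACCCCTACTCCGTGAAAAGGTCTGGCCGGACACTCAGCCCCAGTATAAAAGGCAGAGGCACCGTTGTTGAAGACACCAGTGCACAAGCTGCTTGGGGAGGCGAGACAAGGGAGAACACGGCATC

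The isoforms in capitals began 10 bases after the RefSeq start for Spp1 and 6 bases after it for Upp1. They began 83 bases before it for AA467197, 156 bases before it for Krt8, 135 bases before it for Krt18 and 133 bases before it for Nppb. The windows were searched on both strands for the letters TATAAA of the TATA box, for the TEAD motif GGAATG, for the AP-2 motif GCCNNNGGC and for the GATA motif AGATAA. Of all 32851 promoter windows of the same length, 13.6% held the TATAAA letters, 14.7% the TEAD motif, 16.6% the AP-2 motif and 11.2% the GATA motif. Spp1 held TATAAA from position -211, counted from the RefSeq start. Upp1 held GGAATG from -182 and from -84. Krt8 held TATAAA from -1 on the plus strand of the gene and from -3 on the other strand, which overlap, and AGATAA from -239. Krt18 held GCCNNNGGC from -83. Nppb held TATAAA from -31, GGAATG from -105 and AGATAA from -84. None of these letters was found in the window of AA467197. These matches describe the letters in the windows and say nothing of binding.

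The keratins and Spp1 differed more between the 13 blastocyst cells than between the 22 32-cell blastomeres, and in opposite directions. Krt8, an intermediate filament keratin of simple epithelia, was at 47.6 copies in the blastocyst (42.2-53.4) and at 14.2 copies at the 32-cell stage (11.6-17.1). Its level in single blastocyst cells, in the order of their numbers 1 to 13, was 14.3, 7.3, 3.7, 100.7, 23.1, 170.2, 0, 9.3, 30.2, 91.2, 105.4, 8.9 and 132.6 copies. Cells 4, 6, 10, 11 and 13 were therefore at 91.2 copies or more and the other 8 at 30.2 or less. In the 32-cell blastomeres Krt8 lay between 0 and 39.4 copies (median 11.1), below all 5 of those cells.

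Krt18, the partner keratin with which Krt8 forms filaments, was at 43.9 copies in the blastocyst (38.8-49.5) and 15.6 at the 32-cell stage (12.9-18.7). The 13 blastocyst cells held 2.4, 4.9, 1.9, 92.8, 5.3, 181.2, 4.2, 0, 28.3, 89.1, 124.3, 5.3 and 116.6 copies. The same 5 cells stood above the others, cell 9 came next with 28.3 copies, and the median cell held 5.34 copies. The 32-cell blastomeres held between 0 and 58.7 copies with a median of 8.64, so that the median cell was lower in the blastocyst while the pooled level was higher. Lrp2 (megalin), a large endocytic receptor, was at 24.6 copies in the blastocyst (20.8-28.9) and 7.47 at the 32-cell stage (5.66-9.68). In blastocyst cells Lrp2 reached 121.2 copies in cell 13, 82.3 in cell 6 and 76.4 in cell 10, and was at 0 in cells 3, 5 and 7. The highest 32-cell blastomere held 22.5 copies of Lrp2.

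Spp1 (osteopontin), a secreted phosphoprotein that was listed here with the inner cell mass markers, showed the opposite order. Its level was 74.98 copies in the blastocyst (68.2-82.2) and 2.75 at the 32-cell stage (1.70-4.21). The 13 blastocyst cells held 131.5, 117.0, 221.7, 2.0, 67.6, 0, 128.6, 93.1, 92.4, 10.6, 0, 58.4 and 11.4 copies. Cells 4, 6, 10, 11 and 13, which were high for Krt8, were the 5 lowest for Spp1. The 32-cell blastomeres held at most 16.4 copies, with a median of 0, and each of the other 8 blastocyst cells lay above all of them.

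Tdgf1 (Cripto), the co-receptor of Nodal, was at 17.3 copies in the blastocyst (14.2-20.99) and 5.90 at the 32-cell stage (4.30-7.89). In blastocyst cells it lay between 0 and 52.6 copies (median 14.2). Cells 4, 6, 10 and 13 held no UMI of Tdgf1, and cell 11 held 1. Upp1, a uridine phosphorylase of pyrimidine salvage that was on no marker list, lay between 0 and 59.6 copies, highest in cell 3 and at 0 in cells 11 and 13.

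**Figure D1:**
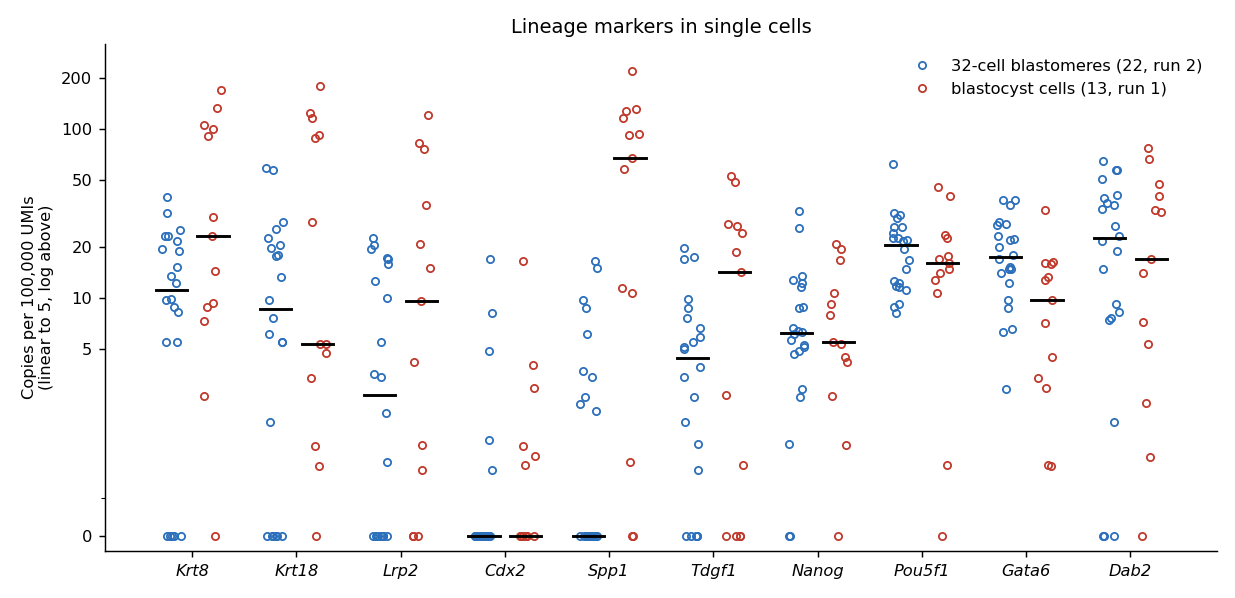
Levels of 10 lineage markers in every cell, in copies per 100,000 UMIs on an axis that is linear to 5 and logarithmic above, for 22 32-cell blastomeres (blue) and 13 blastocyst cells (red). Each circle is a cell and each bar the median over cells. Blastocyst cells reach 170.2 copies of Krt8 and 221.7 copies of Spp1, while the highest 32-cell blastomeres hold 39.4 and 16.4 copies, and Nanog and Gata6 overlap between the stages.

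Summed over the measured members of each list, the trophectoderm markers (14 genes) lay between 22.4 and 669.8 copies in single blastocyst cells (median 51.6) and the epiblast markers (12 genes) between 22.0 and 365.2 copies (median 166.4). The share of the trophectoderm list in both sums was 13.7, 15.7, 5.8, 85.2, 26.1, 96.8, 7.0, 13.8, 42.5, 86.1, 91.4, 17.5 and 91.3% in cells 1 to 13. It was above 75% in 5 cells and below 25% in 6 cells, with cells 5 and 9 between. In the 22 32-cell blastomeres the share lay between 30.0 and 81.9% (median 57.5%), with 1 cell above 75% and none below 25%. Across the 13 blastocyst cells both sums ran against each other, with a Spearman rho of -0.912 (Pearson r -0.844). Without the 2 cells farthest from the median of the trophectoderm sum the rho was -0.864 over 11 cells. With every cell thinned to 13000 UMIs it was -0.850 over 13 cells. Across the 22 32-cell blastomeres it was -0.0152 (r 0.0329), and 0.114 with thinning. The cells of a stage share a run, and these values describe them without a test. A few abundant members weigh heavily in the sums. In cell 3 Spp1 made 221.7 of the 365.2 epiblast copies. In cell 6 Krt8 and Krt18 made 170.2 and 181.2 of the 669.8 trophectoderm copies. The rho without these genes was not computed, so it does not show that the other members were opposed. Cell 6, with the highest trophectoderm share, was also the shallowest blastocyst cell (18215 UMIs), so that 1 UMI was worth 5.49 copies there. Taken over all oocytes and zygotes of run 1, the trophectoderm list summed to 12.3 copies and the epiblast list to 7.85 copies.

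**Figure D2:**
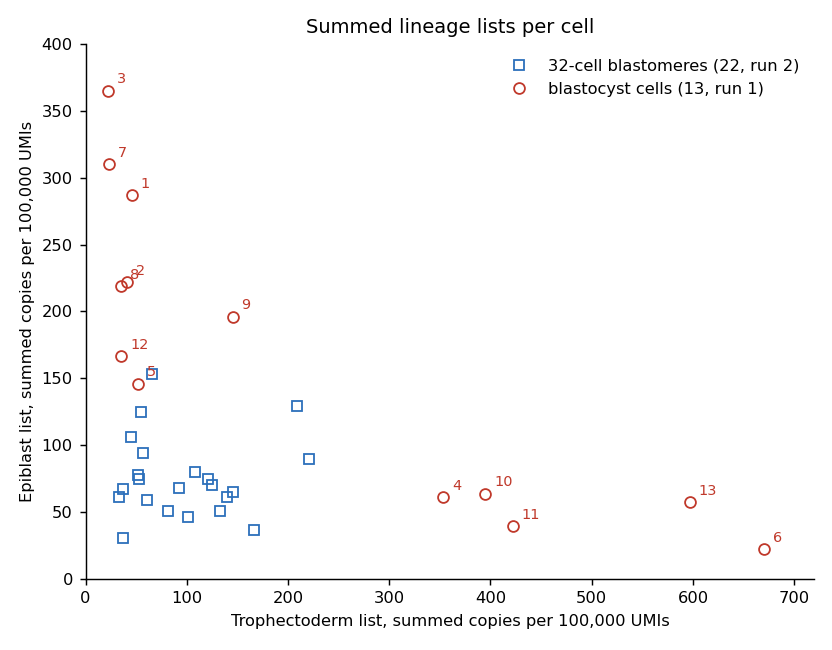
Summed levels of the trophectoderm list (horizontal axis) and of the epiblast list (vertical axis) in each cell, in copies per 100,000 UMIs, with blastocyst cells as numbered red circles and 32-cell blastomeres as blue squares. The 13 blastocyst cells run from high epiblast to high trophectoderm sums (rho -0.912), with cell 9 between at 145.2 and 196.1 copies. The 22 32-cell blastomeres lie together at 33.5-221.0 and 30.5-153.5 copies. That range also holds blastocyst cell 5, at 51.6 and 145.9 copies.

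Several pairs of single genes followed this order over 13 blastocyst cells, and Nanog did not. Krt8 had a rho of 0.879 with Krt18, 0.884 with Lrp2, 0.890 with Ptges, a prostaglandin E synthase, and 0.896 with Gata3. Spp1 had a rho of 0.888 with Tdgf1 and 0.869 with Upp1. Krt8 had a rho of -0.847 with Spp1, -0.813 with Tdgf1 and -0.894 with Upp1. For Nanog the rho was 0.0549 with Krt8 and -0.121 with Spp1, and for Pou5f1 with Krt8 it was -0.462. Over 22 32-cell blastomeres the values were 0.486 for Krt8 with Krt18, 0.504 with Lrp2, -0.255 with Spp1 and 0.0223 with Tdgf1.

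The transcription factors by which the lineages are usually named were sparse. Cdx2 had 10 UMIs in 6 of the 13 blastocyst cells (46.2%, exact interval 19.2-74.9) and 11 UMIs in 5 of the 22 32-cell blastomeres (22.7%, 7.82-45.4). Its pooled level was 1.65 copies (0.792-3.04) and 1.44 copies (0.720-2.58), and no UMI was found in the oocytes and zygotes of either run. The blastocyst cells with a Cdx2 UMI were cells 1, 4, 6, 9, 10 and 13. Gata3 was at 8.09 copies in the blastocyst, in 6 of 13 cells, and at 4.85 copies at the 32-cell stage, in 14 of 22 cells. Tead4, the DNA-binding partner of Yap1 upstream of Cdx2, was at 6.77 copies (4.86-9.19) against 12.8 (10.4-15.7). Eomes was at 1.82 against 4.20 copies, Id2 at 6.11 against 6.95 and Tfap2c at 10.7 against 8.65. Tspan8 was at 5.95 copies in the blastocyst and 1.18 at the 32-cell stage. Hand1, Krt7 and Krt19 had 0, 4 and 0 UMIs in the blastocyst and 2, 1 and 0 at the 32-cell stage, where the exact upper limit of 0 UMIs is 0.609 copies over all blastocyst cells and 0.484 over all 32-cell blastomeres. Elf5 was not analysed here.

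Nanog was at 8.92 copies in the blastocyst (6.70-11.6) and 7.87 at the 32-cell stage (6.00-10.1), with a UMI in 12 of 13 and 20 of 22 cells. The 13 blastocyst cells held 0 to 20.7 copies of Nanog (median 5.49), and cells 7, 9 and 12 were the highest. Pou5f1 (Oct4) was at 18.7 and 19.5 copies. Zfp42 (Rex1) was at 26.1 against 14.9 copies, with a UMI in all 13 blastocyst cells, and Gdf3 at 13.1 against 5.11. Sox2 was at 2.48 and 2.36 copies, Klf2 at 3.14 and 3.54 and Esrrb at 2.48 and 3.02. Klf4 was at 2.48 against 8.13 copies and was found in 5 of 13 and 19 of 22 cells. Fgf4, the ligand by which epiblast cells signal to primitive endoderm, had 5 UMIs in 3 blastocyst cells and none in the 32-cell blastomeres, and Prdm14 had 7 UMIs in 4 cells against 1 UMI.

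Gata6 had a UMI in all 13 blastocyst cells and in all 22 32-cell blastomeres, at 9.58 (7.27-12.4) and 18.4 copies (15.4-21.7). In single blastocyst cells Gata6 lay between 1.9 and 32.9 copies (median 9.75), highest in cell 6, and its rho was 0.324 with Krt8 and 0.363 with Nanog. In run 1 oocytes and zygotes, of a median depth of 215502 UMIs, Gata6 was at 0.310 and Nanog at 0.155 copies. Of the 13 blastocyst cells, 12 held UMIs of both Nanog and Gata6 (all but cell 11), among them cells high for Krt8. At the 32-cell stage, where all 22 blastomeres held Gata6, 20 held both, so that this was not particular to the blastocyst. The later primitive endoderm markers were at or near 0, with 1 UMI of Gata4, 2 of Sox17, none of Sox7 and 1 of Serpinh1 in the blastocyst. Pdgfra was at 0.991, Col4a1 at 2.64, Col4a2 at 1.32, Lama1 at 0.661 and Lamb1 at 5.62 copies. Dab2, an endocytic adaptor listed with this lineage, was at 25.9 and 26.3 copies and had a rho of 0.846 with Krt8 in the blastocyst. Fgfr2 was at 3.63 and 5.64 copies.

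As ratios of the blastocyst to the 32-cell level, Krt8, Krt18 and Lrp2 were at 3.36, 2.82 and 3.29, Spp1, Tdgf1 and Gdf3 at 27.2, 2.94 and 2.55, and Gata6 and Dab2 at 0.522 and 0.984. Lrp2, Spp1, Tdgf1 and Gdf3 reached 10 copies in the blastocyst alone, so that a count over the members at that level would favour the blastocyst and is not given. The summed level was 193.6 against 100.9 copies for the trophectoderm, 171.6 against 73.3 for the epiblast, of which Spp1 alone made 74.98 and 2.75, and 51.0 against 58.5 for the primitive endoderm. Cumulus cell markers (5 of 7 analysed) had no UMI in either stage.

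To find the genes that differed most between cells, every cell was thinned to the same depth. Of 1705 genes with 10 or more copies in the blastocyst 82 (4.81%) had a variance of 3 or more times the mean between cells thinned to 13000 UMIs, where counting alone gives 1. At the 32-cell stage this held for 39 of 1660 genes (2.35%), and 22 genes were on both lists. Both counts moved with the setting. Without the highest cell of each gene they were 40 and 19, and with thinning to 18000 UMIs they were 133 and 71. The median gene had a variance over mean of 1.19 and 1.23. The most spread gene of the blastocyst was Bhmt, the betaine-homocysteine methyltransferase of the methionine cycle, at a variance over mean of 23.5 against 3.16 at the 32-cell stage. Bhmt lay between 112.0 and 906.3 copies in blastocyst cells (median 370.0), highest in cell 1, and its rho with Krt8 was -0.780. Without cell 1 its variance over mean was 9.13, below the 20.6 of Tmsb10 and the 14.4 of Fabp3 without their own highest cells. It lay between 87.5 and 368.8 copies in 32-cell blastomeres.

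Tmsb10, an actin-binding thymosin, followed at 21.9 against 5.24, with 67.5 to 692.9 copies and a rho with Krt8 of 0.736. The 5 cells high for Krt8 held 384.3 copies of Tmsb10 or more and the others at most 199.9. Fabp3, a fatty acid binding protein, was at 20.9 against 2.05. Fabp3 held 292.8 copies in cell 10 and 184.5 in cell 11, 144.1 in each of cells 4 and 13, 32.9 in cell 6 and at most 41.5 in the others. Timd2, a receptor of ferritin, was at 17.3 against 6.30, with 464.0 copies in cell 4 and a rho of 0.912 with Krt8. Timd2 was lower in the blastocyst than at the 32-cell stage, at 156.1 against 367.5 copies.

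Alppl2, an alkaline phosphatase, was at a variance over mean of 11.5, with 298.2 copies in cell 4, and came to 2.199 without that cell. Krt18 was at 10.7 and Spp1 at 9.93, against 1.77 and 1.45 at the 32-cell stage. Their mean in thinned cells was 7.08 and 10.1 UMIs in the blastocyst, and 1.73 and 0.364 UMIs at the 32-cell stage. Cells that differ by the same factor give a larger variance over mean at a higher mean, so these values also carry the difference in level. The mitochondrially encoded mt-Nd4 was at 10.3 in the blastocyst and 15.02 at the 32-cell stage, and was highest in cell 6. The rho with Krt8 was taken for the spread genes and chosen pairs alone. The share of all genes past a given rho is therefore not known, and no count is given. Spread genes with a rho of 0.7 or more with Krt8 included Ptges, Clic4, Wsb1, Sord, Akr1b8, Mtf2, Actg1, S100a11 and Cd63. Those with a rho of -0.7 or less included Spp1, Tdgf1, Spic, Ckb, Fth1, Eif2s2, Prdx1 and Ppm1a. The lineage markers among the 82 genes were Krt8, Krt18, Lrp2, Ptges, Spp1 and Tdgf1. Lrp2, Spp1 and Tdgf1 were under 10 copies at the 32-cell stage and could not be listed there, so the lists are not compared by markers. Krt8, Krt18 and Ptges were at 14.2, 15.6 and 23.2 copies at the 32-cell stage, with a variance over mean of 1.34, 1.77 and 1.74. The most spread genes of the 32-cell stage were mitochondrially encoded, led by mt-Atp6 at 18.8, mt-Nd1 at 18.0 and mt-Nd4 at 15.02.

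Genes were called gained in the blastocyst at 10 or more copies there, a ratio of 4 or more to the 32-cell level and a UMI in at least 7 of 13 cells, and lost at 10 or more copies at the 32-cell stage, a ratio of 1/4 or less and a UMI in at least 11 of 22 cells. Of 1907 genes with 10 or more copies in either stage 50 were gained (2.62%) and 7 were lost (0.367%). Of the 50 gained genes 40 were at a higher level in the oocytes and zygotes of run 1 than in the blastocyst. Of all 1907 genes 1527 were not. Just inside the limit lay Khdc1b at 4.13, Hspa5 at 4.27 and Oog3 at 4.29, and just outside lay Hsp90b1 at 3.82, Smagp at 3.78 and Rnf130 at 3.59.

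**Figure D3:**
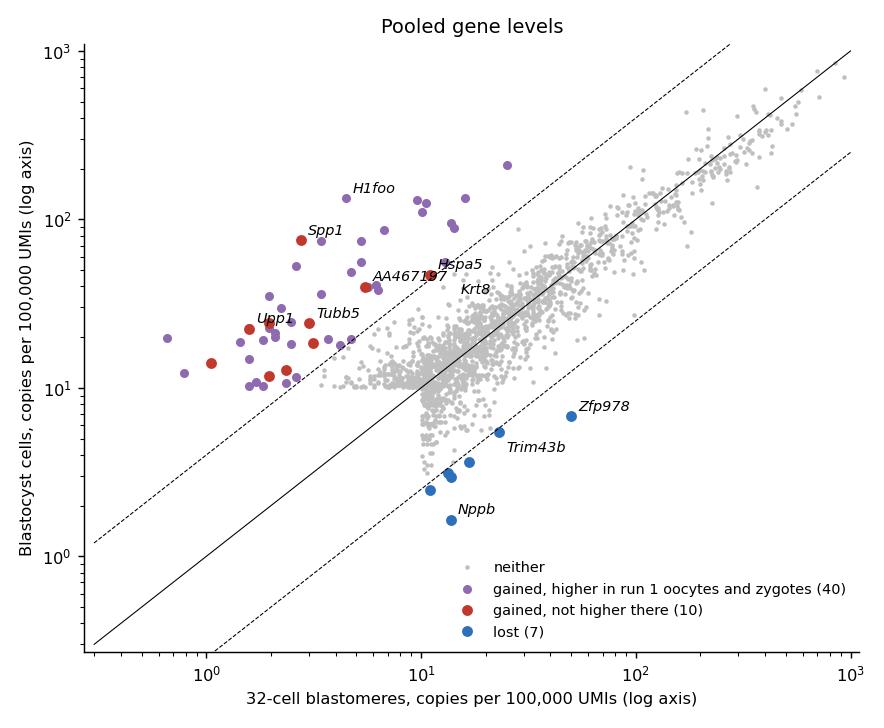
Pooled level in blastocyst cells (vertical) against 32-cell blastomeres (horizontal) of the 1907 genes with 10 or more copies in either stage, in copies per 100,000 UMIs on logarithmic axes. The solid line marks equal levels and the dashed lines a ratio of 4 either way. Of the 50 gained genes, 40 (violet) were higher in the oocytes and zygotes of run 1 and 10 (red) were not, and 7 genes were lost (blue).

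The 10 gained genes that were not higher in run 1 oocytes and zygotes were 0.655% of the 1527 genes tested of this kind. Spp1 led them at 27.2 times, with a UMI in 11 of 13 blastocyst cells and 10 of 22 32-cell blastomeres. Upp1 was at 22.5 copies (18.9-26.6) against 1.57 (0.813-2.75), or 14.3 times, and was found in 11 of 13 and 5 of 22 cells. AI662270, a processed transcript, was at 14.0 against 1.05 copies, with a UMI in all 13 blastocyst cells and 5 of 22 blastomeres. Gm21887, a predicted gene annotated on chromosome X, was at 24.1 against 1.97 copies. It lay between 15.1 and 40.7 copies in blastocyst cells and between 0 and 19.04 at the 32-cell stage.

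Tubb5, a beta-tubulin, was at 24.3 copies (20.5-28.5) against 3.02 (1.91-4.52), or 8.05 times. As a member of a family with similar copies it is uncertain. AA467197, a small mitochondrial protein gene of chromosome 2 also known as Nmes1, was at 39.8 copies (34.9-45.2) against 5.51 (3.97-7.44). It lay between 0 and 97.5 copies in blastocyst cells (median 33.7) and between 0 and 18.3 at the 32-cell stage. H2-D1, a class I histocompatibility heavy chain with close family copies, was at 11.7 against 1.97 copies. Glo1, the glyoxalase that removes methylglyoxal, was at 12.7 against 2.36, and Zfp982, a zinc finger gene with close copies, at 18.5 against 3.15.

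Hspa5 (BiP), the chaperone of the endoplasmic reticulum, was at 47.1 copies (41.8-52.9) against 11.01 (8.78-13.6). It lay between 25.3 and 74.3 copies in blastocyst cells and between 0 and 38.4 at the 32-cell stage. Over all 16-cell blastomeres Hspa5 was at 49.5 copies, but at 14.6, 82.2, 32.8 and 14.6 copies in the 16-cell embryos 1 to 4. Of the 10 genes, 7 also passed the limits against all 16-cell blastomeres, namely Spp1, Upp1, AI662270, AA467197, H2-D1, Zfp982 and Glo1. Spp1 was at 3.55 copies at the 16-cell stage.

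With a limit of 2 times, 131 of the 1907 genes were higher in the blastocyst (6.87%) and 94 lower (4.93%), at a median ratio of 1.04 over all 1907, and of the 131 genes 61 were not higher in run 1 oocytes and zygotes (3.99% of 1527). Of these 61, 8 are given here, chosen after their values were seen. Hsp90b1, a chaperone of the endoplasmic reticulum, was at 15.03 against 3.93 copies, Calr, the calcium-binding chaperone calreticulin, at 47.6 against 16.1, and Erp29 at 13.5 against 5.37. In 16-cell embryo 2 Hsp90b1 and Calr were at 40.7 and 94.4 copies, and in the other 16-cell embryos at 1.26-3.01 and 10.1-11.8. Plin2, which coats lipid droplets, was at 22.5 against 6.29 copies, Scd2, a fatty acid desaturase, at 25.4 against 8.78, and Tecr, a reductase of fatty acid elongation, at 23.8 against 8.78. Ftl1, the ferritin light chain, was at 436.0 against 171.2 copies and at 837.1 copies in 16-cell embryo 2 and 103.4-148.4 in the others. Spic, an ETS-family transcription factor, was at 26.3 against 10.1 copies. Spic had a UMI in 9 of 13 blastocyst cells and its rho with Krt8 was -0.858.

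The other 40 gained genes were all at a higher level in run 1 oocytes and zygotes, as the split sets. H1foo, the oocyte linker histone, was at 133.8 copies in the blastocyst (124.7-143.3) and 4.46 at the 32-cell stage (3.09-6.23), or 30.0 times. It lay between 84.3 and 230.6 copies in blastocyst cells (median 133.7) and between 0 and 19.4 in 32-cell blastomeres (median 3.52), without overlap. D6Ertd527e was at 19.7 against 0.655 copies, Obox2, an oocyte homeobox gene with close copies, at 74.0 against 3.41 and Rfpl4 at 53.0 against 2.62. Smim14 was at 35.01 against 1.97, Accsl at 12.2 against 0.787 and Gdf9, an oocyte growth factor of the TGF-beta family, at 22.8 against 1.57. Tcl1b1, one of a cluster of Tcl1 genes with close copies, was at 74.8 against 5.24, Bcl2l10, an oocyte member of the Bcl2 family, at 131.0 against 9.57, Tcl1b2 at 29.7 against 2.23 and AU022751 at 18.7 against 1.44. Btg4, which is known for the clearance of maternal mRNA, was at 86.1 against 6.69. Each of the 40 genes had a UMI in all 13 blastocyst cells. How often this held over all genes of 10 or more copies was not computed, so it does not set these genes apart.

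These 40 genes summed to 2023 copies in the blastocyst, 211.8 at the 32-cell stage and 1350 over all 16-cell blastomeres. In the oocytes and zygotes they summed to 17692 copies in run 1 and 14519 in run 2. They took 1.26-3.45% of the UMIs of a blastocyst cell (median 1.84%) and 0.0987-0.642% of those of a 32-cell blastomere (median 0.192%). The 16-cell blastomeres stood apart by embryo. Those of embryo 2, by the number in their names, held 0.157-0.816% in 15 cells, and those of embryos 1, 3 and 4 held 2.09-3.47% in 11 cells, 1.02-4.05% in 7 cells and 1.05-3.73% in 5 cells. The sums of the 40 genes were 2597, 252.2, 2294 and 1761 copies in embryos 1 to 4, so that embryo 2 was near the 32-cell sum and the others near that of the blastocyst. The cell lists place 11, 15 and 12 of the 16-cell blastomeres in runs 1, 2 and 3. Whole embryos match these counts in 1 way only. Embryo 1 is then in run 1, embryo 2 in run 2, and embryos 3 and 4 in run 3. The lists themselves pair embryo numbers with a run only for 2 cells of embryo 1, in run 1. Whether each embryo went whole into 1 run was not checked. Single genes stood in the blastocyst at 3.19-24.3% of their run 1 oocyte and zygote level, with a median of 11.3%. The share was not the same for all oocyte genes. Bmp15, a growth factor related to Gdf9, was at 67.8 copies in run 1 oocytes and zygotes and 0.330 in the blastocyst, and Zp2 and Zp3 of the zona pellucida were at 4.75 and 12.5 copies there and at 0 and 0.991 in the blastocyst. Run 1 pooled the blastocyst cells with 9 oocytes and zygotes and run 2 the 32-cell blastomeres with 3. The part of the run in the higher level of these genes was not tested, and stage and run cannot be told apart.

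Of the oocyte list, H1foo and Gdf9 are given above, and Oosp1 was at 110.5 against 10.1 copies. Ooep, a protein of the subcortical maternal complex, was at 3.80 against 1.18 copies, Bub1b, a spindle checkpoint kinase, at 6.28 against 4.59, and Nlrp5 and Zp1 had at most 2 UMIs in either stage.

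**Figure D4:**
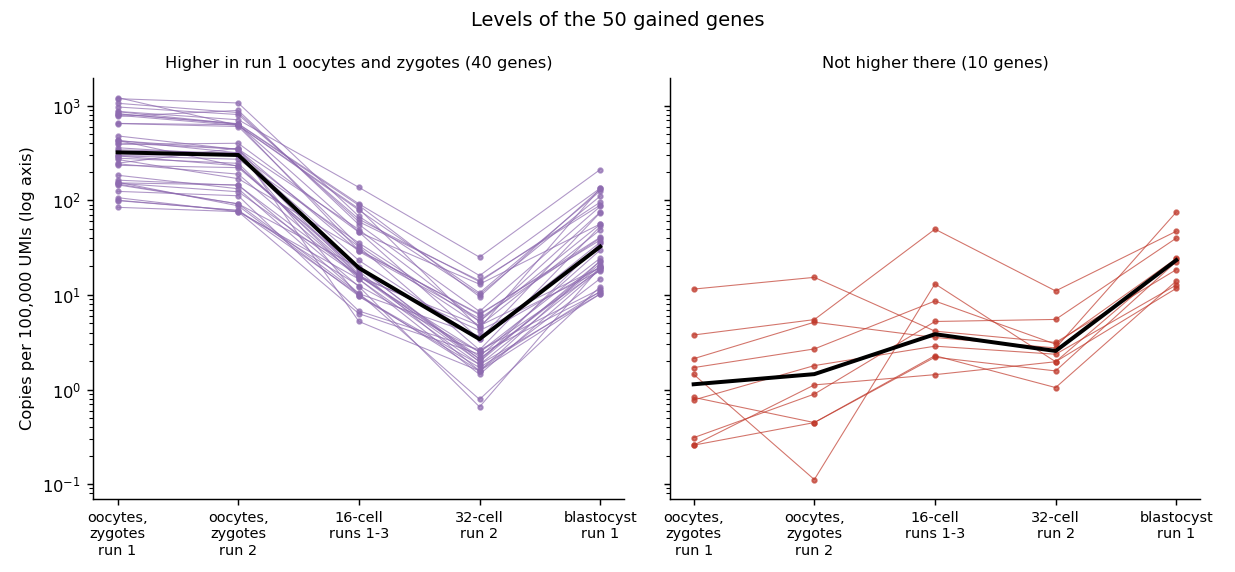
Level of each of the 50 gained genes, in copies per 100,000 UMIs on a logarithmic axis, in oocytes and zygotes of run 1 and run 2, 16-cell blastomeres, 32-cell blastomeres and blastocyst cells, with the median as a black line and levels under 0.1 drawn at 0.1. The left panel holds 40 genes that were higher in run 1 oocytes and zygotes, and the right panel the 10 that were not, among them Hspa5, at 49.5 copies over all 16-cell blastomeres.

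The 7 lost genes were led by Nppb, the natriuretic peptide B precursor, at 13.8 copies at the 32-cell stage (11.3-16.7) against 1.65 in the blastocyst (0.792-3.04). It lay between 0 and 69.7 copies in 32-cell blastomeres (median 9.26), with a UMI in 20 of 22 cells, and between 0 and 9.15 in blastocyst cells, with a UMI in 5 of 13. The ranges overlapped. Zfp978, a zinc finger gene of a cluster of close copies on chromosome 4, was at 49.95 copies (45.1-55.2) against 6.77 (4.86-9.19). Zfp978 had a UMI in all 22 blastomeres, at 5.64-87.1 copies, and was at 6.00 copies at the 16-cell stage. Agpat5, an acyltransferase of phospholipid synthesis, was at 13.8 against 2.97 copies, 2310040G24Rik at 16.7 against 3.63 and Gpr161, a receptor of the primary cilium, at 11.01 against 2.48. Qk, the RNA-binding protein Quaking, was at 13.4 against 3.14, and Trim43b, of a family with close copies, at 23.1 against 5.45. Just inside this limit lay Trim43b at a ratio of 0.236 and Qk at 0.235, and mt-Nd3 at 0.275 was outside it.

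Of the gene lists of processes, the heat shock list alone held a gained gene, Hspa5, and none held a lost gene. Over all 1907 genes only 2.62% were gained and 0.367% lost, so this does not set the lists apart. Members counted here reached 10 copies in either stage. A gene at that level in 1 stage alone thus entered through the stage where it was high. Over all 1907 genes, 6.87% were at 2 times or more in the blastocyst and 4.93% at 1/2 or less. Of the ion pumps and aquaporins, by which the cavity fills, Aqp3, a water and glycerol channel, was the only 1 of 15 genes to reach 10 copies, at 11.6 against 15.2. Atp1b3, a beta subunit of the sodium pump, was at 4.29 against 5.24 copies, the ion cotransporter Slc12a2 at 2.48 against 4.72 and Aqp9 at 3.30 against 3.80. Of 6 junction genes at 10 or more copies none passed 2 times, and their median ratio was 1.08. Epcam, an epithelial adhesion molecule, was at 71.4 against 43.9 copies, Cldn7, a claudin of tight junctions, at 25.9 against 22.8, Ctnna1, the alpha-catenin of adherens junctions, at 17.3 against 14.7 and F11r, an adhesion molecule of tight junctions, at 10.6 against 14.7. Of 13 genes of the apical domain and actin list 1 passed 2 times, with a median ratio of 1.14. Actg1, a cytoplasmic actin, was at 221.2 against 290.1 copies, Tmsb10 at 271.5 against 215.7, and the actin-binding proteins Cfl1 and Pfn1 at 117.9 against 81.5 and at 108.0 against 71.8. Both keratins at that level, Krt8 and Krt18, passed 2 times.

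Of the Hippo list, the pathway that sets Cdx2 in outer cells, 1 of 21 genes, Tead4, reached 10 copies. Its coactivators Yap1 and Wwtr1 (Taz) were at 7.10 against 8.78 and 6.44 against 9.83 copies, and the kinase cofactor Mob1a at 5.29 against 5.90. No gene of the FGF, ERK and LIF list reached 10 copies. The adaptor Grb2 was at 3.96 against 6.03, the LIF effector Stat3 at 4.29 against 2.62 and the feedback inhibitors Spry2 and Spry4 at 3.14 against 4.06 and 1.98 against 0.262. Of 5 endocytic genes Lrp2, which reached 10 copies in the blastocyst alone, passed 2 times. Lrpap1, the chaperone of Lrp2, was at 121.1 against 142.1 copies, Fabp3 at 72.7 against 37.9 and its relative Fabp5 at 25.9 against 32.9. Of 3 glycolysis genes Pkm, the pyruvate kinase, passed 2 times at 26.4 against 11.9 copies, Pgam1, a phosphoglycerate mutase, was at 38.2 against 19.7, the aldolase Aldoa at 24.6 against 22.2 and the isomerase Gpi1, under the level, at 9.74 against 5.64.

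Mitochondrially encoded genes had a median ratio of 0.645 over 11 genes, and their sum was 2623 against 3378 copies. Of these 11 only mt-Cytb, of respiratory complex III, was higher in the blastocyst, at 470.9 against 350.7, while mt-Atp6 was at 536.1 against 715.1, mt-Nd1 at 423.8 against 558.1 and mt-Co1 at 474.0 against 552.8. Of 4 apoptosis genes 2 were at 1/2 or less, the p53 target Cdkn1a at 6.11 against 17.3 copies and the survival factor Mcl1 at 13.1 against 26.7. The cell death gene Bax was at 24.8 against 21.4 and Mdm2, which degrades p53, at 6.11 against 10.2. Of 3 basement membrane genes Nid1 (nidogen) was at 6.61 against 14.7, the collagen lysyl hydroxylase Plod1 at 7.60 against 14.5 and the integrin Itgb1 at 7.93 against 10.6.

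Of 5 heat shock genes Hspa5 was gained, and Hspa8, Hsp90aa1 and Hsp90ab1 had ratios of 1.20, 0.982 and 0.806. Of 7 redox genes Prdx1, a peroxiredoxin, was at 204.1 against 94.4 copies and Mt2, a metallothionein, at 19.8 against 57.7, while the glutathione enzymes Gpx4 and Gsto1 were at 85.2 against 90.6 and at 65.4 against 52.6. Of 8 DNA methylation genes Dnmt3l reached 10 copies at 11.7 against 13.8, the maintenance factor Uhrf1 was at 8.92 against 5.24 and Tet2 at 7.93 against 5.51. Tet3, the dioxygenase of the zygote, was at 6.44 against 0.524 copies, and at 61.4 in run 1 oocytes and zygotes. The sterol, imprinted and amino acid transport lists had 1 gene each at 10 copies, namely Fdps, which makes farnesyl pyrophosphate, at 20.2 against 13.4, Snrpn at 32.5 against 37.1, and Slc3a2, the heavy chain of amino acid transporters, at 15.9 against 10.1. The markers of the 2-cell stage summed to 0.991 and 1.05 copies.

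Xist, the RNA of the inactive X chromosome in female cells, had 2 UMIs in 1 blastocyst cell and none in the 32-cell blastomeres. UMIs of the Y-linked genes Ddx3y, Eif2s3y, Kdm5d or Uty were found in 12 of 13 blastocyst cells (32 UMIs) and 17 of 22 32-cell blastomeres (57 UMIs). In the 16-cell blastomeres Xist was at 19.9 copies, in 28 of 38 cells, and the Y-linked genes summed to 0.338 copies.

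Isoforms were compared with the same limits. Of 1344 isoforms with 10 or more copies in either stage 59 were gained (4.39%) and 19 were lost (1.41%). Of the 59 gained isoforms 56 were full splice matches (FSM), which hold every junction of an annotated transcript, and 37 belonged to genes that were higher in run 1 oocytes and zygotes. Neither share was computed over all 1344 isoforms. Of the 22 gained isoforms of other genes, 11 belonged to genes that were themselves past 2 times and 11 to genes below it. In the blastocyst 77.6% of gene UMIs had an isoform in the table, and at the 32-cell stage 72.0%. FSM isoforms took 81.9% of isoform UMIs in the blastocyst and 77.2% at the 32-cell stage, and incomplete matches, which lack exons at an end, 12.9% and 17.6%.

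The share of the isoform UMIs held by the leading isoform varied between the genes higher in the blastocyst. For Spp1 the isoform PB.58178.3, with 7 exons at chr5:104434710-104441055, held 92.3% of the isoform UMIs of the gene in the blastocyst (exact interval 89.3-94.7). It was at 61.8 against 1.70 copies, or 36.2 times, and starts before the promoter window shown above. The isoform PB.58178.6, whose start is marked there, had 21 UMIs in 9 blastocyst cells and none at the 32-cell stage. For Upp1 the isoform PB.10016.4, with 9 exons, was at 16.8 against 0.787 copies, or 21.4 times.

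AA467197 had full splice matches from 3 starts. PB.43612.2, which begins 83 bases before the RefSeq start and is the one marked above, was at 15.9 against 0.655 copies, or 24.2 times. PB.43612.6, with 4 exons from the RefSeq start itself, was at 8.26 against 0.393 copies. PB.43612.8, which begins 28 bases after it, was at 13.4 against 3.80 copies, or 3.52 times. They held 37.8, 19.7 and 31.9% of the isoform UMIs of the gene in the blastocyst, and the form from the third start differed least of these 3 between the stages. Tdgf1 had PB.78165.1 at 12.5 against 2.36 copies. Krt8 had PB.28530.2, with 9 exons, at 20.98 against 6.42 copies, and Krt18 had PB.28534.1, with 7 exons, at 23.5 against 9.57, which held 58.0 and 60.4% of the isoform UMIs of their genes in the blastocyst. For Lrp2, a gene of very long transcripts, the 4 isoforms with the most UMIs were incomplete matches. Each had at most 7 UMIs in a stage, of 51 isoform UMIs of the gene in the blastocyst and 20 at the 32-cell stage.

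Other isoforms with large ratios came from genes with and without a large ratio of their own. The Prdx1 isoform PB.52925.6 was at 108.8 against 1.70 copies, or 63.9 times, at a gene ratio of 2.16. Rpl5 PB.58334.26 was at 109.0 against 2.75 copies at a gene ratio of 1.01, and Rplp1 PB.76238.3 at 178.5 against 5.24 at a gene ratio of 0.681. The oocyte genes Oosp3, H1foo and Tesc had isoforms at 57.5, 51.2 and 45.3 times, and the genes themselves were at 10.3, 30.0 and 7.29 times. The lost isoforms were led by mt-Nd3 PB.78709.683 at 0.495 against 59.5 copies, Rps27rt PB.78332.4 at 0.165 against 18.9, mt-Co2 PB.78709.504 at 1.65 against 180.8 and Srsf3 PB.32640.8 at 0.165 against 12.7. The Zfp978 isoform PB.54823.295, with 4 exons, had 264 UMIs in 20 of 22 32-cell blastomeres and none in the blastocyst, at least 69.8 times fewer against a floor of 3 UMIs over the stage. The Ybx1 isoform PB.53116.62 was at 0.330 against 15.6 copies. Of the 19 lost isoforms 6 were mitochondrially encoded and 14 came from genes above a ratio of 1/2. These shares were not computed over all 1344 isoforms, so the counts do not set the lost isoforms apart.

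Of 759 genes with 100 or more isoform UMIs in each stage and more than 1 isoform, 16 had an isoform share that differed by 30 percentage points or more (2.11%). Tax1bp3 PB.12201.2 held 90.5% of the isoform UMIs of its gene in the blastocyst (84.3-94.8) and 17.8% at the 32-cell stage (11.04-26.3). Rpl5 PB.58334.26 held 56.9% and 1.67%, Rplp1 PB.76238.3 55.0% and 1.14%, Prdx1 PB.52925.6 55.0% and 2.00%, Lamtor1 PB.68475.9 83.8% and 38.05% and Ybx1 PB.53116.4 45.3% and 5.68%. In 10 of the 16 genes the isoform that took the opposite share had the same number of exons. For Tax1bp3 the isoform of the blastocyst began 11 bases before the other and ended 102 bases after it. For Rpl5 it began 221 bases before and ended 101 bases after, and for Prdx1 it began 657 bases before and ended 101 bases after.

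Oocytes and zygotes of the same runs showed the same differences. Of the 16 genes 12 had 20 or more isoform UMIs in oocytes and zygotes of each run, and in all 12 the share differed between run 1 and run 2 there in the same direction by 10 points or more. Prdx1 PB.52925.6 held 54.2% in run 1 oocytes and zygotes (6983 isoform UMIs) and 1.56% in run 2 (3204 UMIs), close to the 55.0% and 2.00% of the blastocyst and the 32-cell stage. Tax1bp3 PB.12201.2 held 90.7% and 36.0%, Rpl5 PB.58334.26 69.5% and 2.13%, Rplp1 PB.76238.3 60.4% and 1.43% and Lamtor1 PB.68475.9 88.2% and 41.5%. The lost isoforms did likewise. mt-Co2 PB.78709.504 was at 18.4 copies in run 1 oocytes and zygotes and 263.2 in run 2, and 7 of 11 lost isoforms with 20 or more UMIs there were at least 4 times lower in run 1. Of the 15 gained isoforms with as many UMIs there that came from genes below 2 times, 9 were at least 4 times higher in run 1. For these isoforms, the difference between the stages was thus also present between the runs, and the cause cannot be told apart. How often the isoforms of all genes differ as much between the runs was not computed. The counts of 12, 7 and 9 therefore do not show that these isoforms differ between runs more than others.

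**Figure D5:**
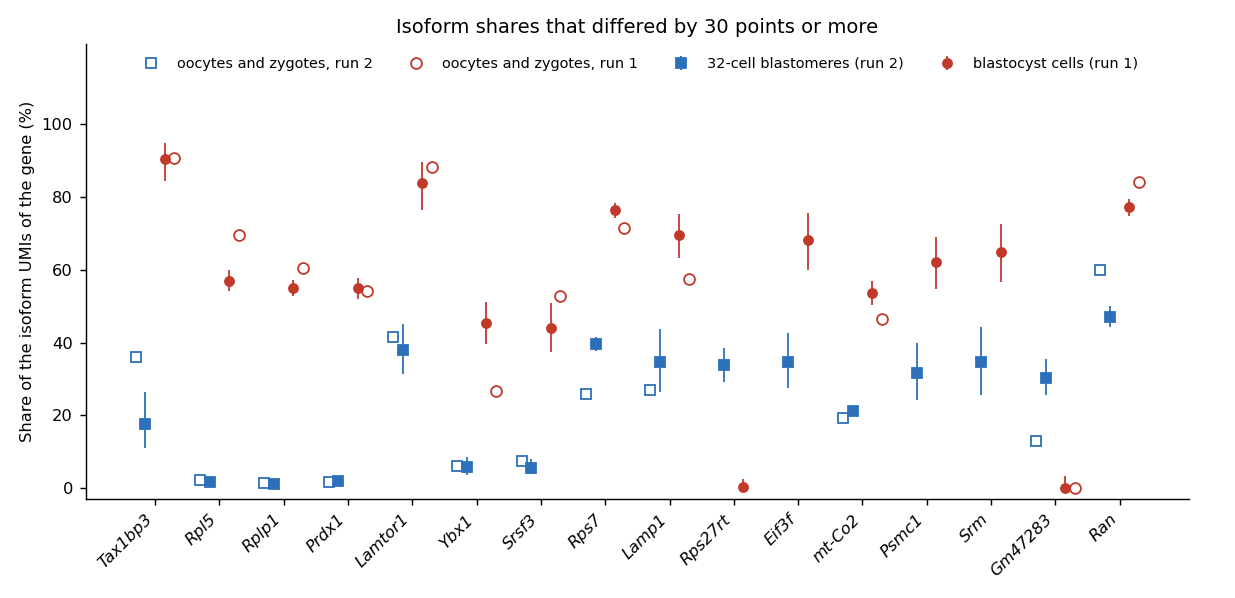
Share of the isoform UMIs of a gene held by 1 isoform, in percent, for the 16 genes whose share differed by 30 points or more. Filled symbols are the 32-cell blastomeres (blue) and the blastocyst cells (red) with exact 95% intervals, and open symbols the oocytes and zygotes of run 2 (blue) and run 1 (red), drawn for the 12 genes with 20 or more UMIs in each. The open symbols are apart in the same direction as the filled ones in all 12 genes, as for Prdx1 at 54.2% and 1.56%.

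At 20 points or more 58 genes differed in a share (7.64%), of which 40 had 20 isoform UMIs in oocytes and zygotes of each run. Of these 40 genes 20 moved in the same direction by 10 points or more between the runs, 2 in the opposite direction and 18 by less than 10 points. Of these 18, 5 are given here, chosen after their values were seen. The constitutive chaperone Hspa8 held PB.75373.2 at 56.9% in the blastocyst (55.0-58.9) and 33.0% at the 32-cell stage (31.1-34.8), and at 53.3% and 49.3% in the oocytes and zygotes of run 1 and run 2. Cct8, a subunit of the chaperonin, held PB.31040.41 at 71.2% and 50.2%, with 60.0% and 68.6% in the oocytes and zygotes. Stip1, a co-chaperone, held PB.37988.3 at 60.6% and 39.7%, with 38.8% and 46.7% there. Psmd2, of the proteasome, held PB.29448.1 at 39.9% and 12.99%, with 15.8% and 9.09% there. In the nucleolar gene Ncl PB.2391.71 held 39.5% and 15.6%, with 6.02% and 4.39% there. Each of these isoforms was an FSM and held the larger share in the blastocyst, the stage with the larger share of FSM UMIs over all genes.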

How the data were processed

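Single cells were amplified as in SCAN-seq with 1 10x gel bead per reaction, and HIT-scISOseq libraries were read on PacBio SMRT cells in HiFi mode. The authors used SMRT-Link for consensus reads, scISA-Tools for barcodes and UMIs, minimap2 for alignment (mm10), gffcompare for gene assignment, cDNA_Cupcake and SQANTI3 for isoforms, and left out isoforms seen in few cells. Both tables were deposited by the authors as CPM-type values, the UMIs of a gene or isoform over all UMIs of the cell, here in copies per 100,000. Isoform values of the cells used summed to 94687.8-96244.8, since the authors took the total before rare isoforms were removed, and were brought to gene UMIs here, as planned.

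UMIs were recovered as whole multiples of the value of 1 UMI (100% of values, tolerance 0.1) and summed by stage. Thinning drew 13000 UMIs from each cell, and no doublet caller was run, since each cell was amplified alone. Cell barcodes that runs may share were not analysed here. Runs came from the study's cell lists. The columns of 92 cells (both stages, 16-cell blastomeres, and oocytes and zygotes) were used, and 69 columns of other cells were not.

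With 1 run per stage no test was made. Levels carry exact Poisson and shares exact Clopper-Pearson 95% intervals, and PCR and run effects lie outside them. The comparison, the lists and the limits were chosen with earlier results of these data known. The split by run 1 oocytes and zygotes was added after the data were seen. Genes named were the 15 gained and up to 10 lost with the largest ratio, 8 gained and 6 lost isoforms, 6 genes with the largest share change, the 8 most spread blastocyst genes, all cell type markers and the 4 members of each other list with the highest level, some of which, under 10 copies, were left out of the text. Genes named beyond these were chosen after their values were seen, among them the genes between 2 and 4 times, the genes correlated with Krt8 and the isoforms whose shares differed by 20 to 30 points. Promoters are from RefSeq, GRCm38.p6, which shares its coordinates with mm10. Python 3.11.15, numpy 2.4.6, pandas 2.3.3, scipy 1.17.1 and matplotlib 3.10.9 were used. One gene near the limit is not reported here.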

Additional observations from a re-analysis of the deposited data

How the results depend on the processing

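Of 51 alternatives on 11 counts, 25 stayed within 1.5 times of the count given and 26 did not. The cause of each shift was not tested, beyond what the setting itself leaves in. Taking the median over cells gave 13 lost genes in place of 7. A ratio of 2 gave 131 gained and 94 lost genes and 196 gained and 84 lost isoforms. A level of 5 copies gave 92 and 17 genes and 121 and 37 isoforms, and no limit on level or cells 487 and 225 genes. Against 16-cell blastomeres 10 genes were gained and 14 lost, and 7 of these 10 were also gained against 32-cell blastomeres. Without genes higher in run 1 oocytes and zygotes, an alternative added after the data were seen, 10 gained genes were left, and 22 gained and 11 lost isoforms. Without isoforms that differed 4 times between the runs in oocytes and zygotes or had under 20 UMIs there, also added, 37 gained and 4 lost isoforms were left. A minimum of 50 isoform UMIs gave 36 share differences and a limit of 20 points 58. Without genes whose share moved between the runs in oocytes and zygotes, or could not be checked there, 0 of the 16 were left, and 18 of the 58. With thinning, 11 lineage markers in place of 22 had a UMI in 11 or more 32-cell blastomeres. Thinning to 18000 UMIs, which left 13 and 18 cells, gave 133 spread genes in the blastocyst and 71 at the 32-cell stage. Without the highest cell of each gene there were 40 and 19. Scaling by the median ratio, leaving out mitochondrially encoded genes, cells of 30000 UMIs or more and the mean over cells kept the gene counts within 1.5 times. No paired analysis was possible because each stage is 1 run and the cells carry no shared embryo number. In single cells 1 UMI was worth 1.65-7.55 copies, and no difference below that can be seen between cells.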
